A study of Homo sapiens with 8 samples.

Results

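FLI1 occupancy was described at 10 genes for chromatin regulators that are often mutated in B cell lymphoma: *KMT2D*, *EZH2*, *SETD2*, *KDM6A*, *EP300*, *CREBBP*, *DNMT1*, *TET2*, *ARID1A* and *SMARCA4*. They are 10 of the 20175 protein coding genes of the annotation and were taken by name, with earlier results of these data known. For each gene, the peak with the highest -log10 q among those centred within 3 kb of any annotated transcription start site (TSS) was taken as its promoter peak, and peaks centred inside the gene were counted from a -log10 q of 3 upwards. The -log10 q is the peak caller's adjusted p-value on a negative log scale, and a peak at 3 or above is called passing here. Peak lists carry no mutation calls, so the mutation label itself was not checked in these lines.

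The peaks came from ChIP-Seq with a rabbit polyclonal antibody to FLI1 in OCI-Ly1 and VAL, both established lymphoma cell lines of germinal center B cell (GCB) origin. Neither line carried a treatment, and each was represented by 2 FLI1 libraries and 2 input DNA samples. The study asked where FLI1 binds in GCB lymphoma. The peak list of the first OCI-Ly1 replicate held 37 intervals, 33 of them longer than 1 Mb, and its 1 passing interval touched none of the 10 genes. The second replicate of OCI-Ly1 and both replicates of VAL, written OCI-Ly1 rep2, VAL rep1 and VAL rep2, were therefore the 3 usable libraries, and no test between the lines was possible with 1 usable OCI-Ly1 library.

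FLI1 is a transcription factor of the ETS family, whose members recognise DNA with a GGAA core, and it is best known for its roles in blood cell development and as a partner in the Ewing sarcoma fusion protein. The 10 genes encode enzymes and remodelers that write, erase or move the marks of chromatin. In germinal center lymphomas, *KMT2D* and *CREBBP* are commonly inactivated, whereas *EZH2* is commonly altered by gain-of-function mutations. Together these regulators set the balance between active enhancers, marked by H3K4 methylation and histone acetylation, and chromatin silenced by H3K27 methylation or DNA methylation.

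The libraries differed in the number of peaks and in the background, and their read totals are not known. The passing peaks numbered 5354 of 1107379 listed in OCI-Ly1 rep2 (0.483%), 973 of 237178 in VAL rep1 (0.41%) and 6474 of 986629 in VAL rep2 (0.656%). The local background under passing peaks, inferred from each peak's fold enrichment and p-value, had a median of 0.42, 2.26 and 0.363 reads in the same order. VAL rep1 thus stood apart, with fewer passing peaks and a higher background in reads. The fewest inferred reads of any passing peak were 8 there against 6 in both other libraries. No peak on fewer reads passed. The median reads of passing peaks were also higher in VAL rep1, 17 against 8 in both other libraries. Without read totals, a deeper library and a noisier one cannot be told apart. The reads are given below with exact Poisson 95% intervals, which cover counting error only.

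A passing promoter peak was found at 7 of the 10 genes in VAL, 5 in OCI-Ly1 and 4 in both lines. In OCI-Ly1 rep2 the 5 were *EZH2*, *KMT2D*, *EP300*, *DNMT1* and *SETD2*, where 19.0% of all protein coding genes had one. In VAL rep2 the 6 were *KMT2D*, *EP300*, *ARID1A*, *DNMT1*, *SETD2* and *SMARCA4*, against 20.8% of all genes. VAL rep1 had 2, *KMT2D* and *CREBBP*, against 3.14%. With either VAL replicate counted, the share of all genes was 21.0%, so the VAL total of 7 differs from the 6 of VAL rep2 by *CREBBP* alone. The genes passing in both lines were *KMT2D*, *EP300*, *DNMT1* and *SETD2* (background 12.6%), and *KMT2D* alone passed in all 3 libraries (background 2.73%). *TET2* and *KDM6A* passed in none.

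The 10 genes offered more start sites than most. They had 8 to 47 annotated TSS each, with a median of 19.5 against 5.0 over all protein coding genes. Among the 7217 protein coding genes with at least 8 TSS, 27.4% carried such a peak in OCI-Ly1 rep2, 4.36% in VAL rep1 and 29.9% in VAL rep2. The 5, 2 and 6 of the 10 genes are set beside these shares as a description, with no test.

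**Figure D1:**
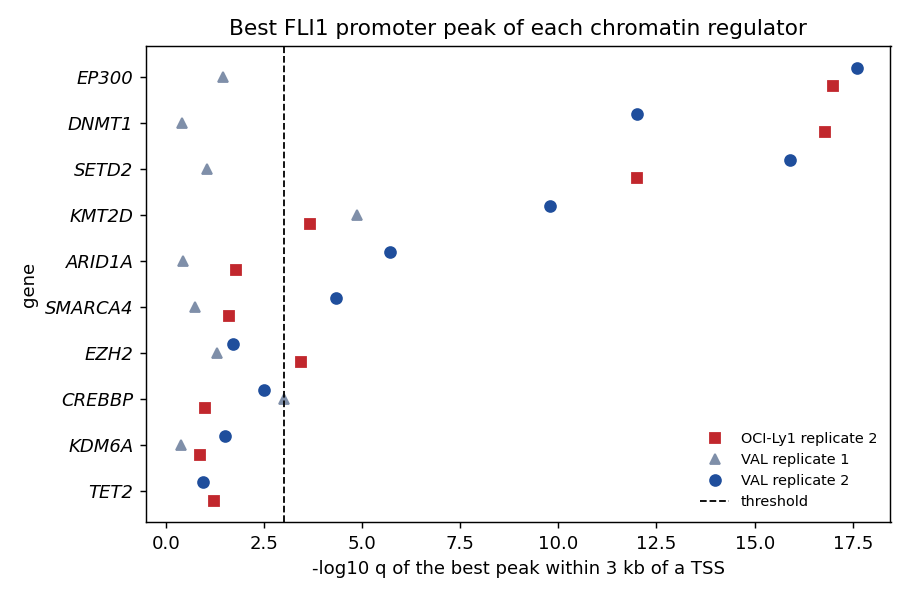
Each point is the -log10 q (horizontal axis) of the best FLI1 peak centred within 3 kb of a TSS of the gene on the vertical axis, in OCI-Ly1 rep2 (red squares), VAL rep1 (grey triangles) and VAL rep2 (blue circles), with a dashed line at the threshold of 3. *EP300*, *DNMT1* and *SETD2* lie at 12.0 or above in OCI-Ly1 rep2 and VAL rep2, while *TET2*, which has no listed promoter peak in VAL rep1, and *KDM6A* stay at 1.52 or below.

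Among the methyltransferases, *KMT2D* encodes the enzyme that places H3K4 monomethylation at enhancers. The gene (ENSG00000167548) lies on the minus strand of GRCh37 at chr12:49412758-49454577, and its peak sat on the TSS at 49454577. The -log10 q was 3.68 in OCI-Ly1 rep2, 4.88 in VAL rep1 and 9.8 in VAL rep2, on 10 (4.8 to 18.4), 20 (12.2 to 30.9) and 12 (6.2 to 21.0) reads. *KMT2D* was the only 1 of the 10 promoters to pass in every usable library, and its highest value came from VAL rep2. In OCI-Ly1 rep2 its peak ranked 4171 of 5354 passing peaks, close to the threshold. At a -log10 q of 5 it passed in VAL rep2 alone. Background at this site was 1.13, 3.52 and 0.478 reads, giving folds of 5.17, 4.65 and 8.8. The 3 summits spanned 71 bp, from 2 bp downstream to 69 bp upstream of the start. Neither CCGGAAA nor CCGGAAG, the preferred FLI1 sequence searched on both strands, was within 50 bp of these summits, and a GGAA was present in all 3 windows. It is shown here just upstream of the TSS, on the plus strand at chr12:49454587-49454616, with the GGAA in capitals.
KMT2D: ccgccctctcggaGGAAaggctgtgactct

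A stronger set of peaks lay just past the other end of *KMT2D*. It sat at the promoter of the neighbouring *PRKAG1*, which encodes a regulatory subunit of the energy sensor AMPK. Its -log10 q was 5.54 in OCI-Ly1 rep2, 14.5 in VAL rep1 and 26.9 in VAL rep2, on 12, 31 and 25 reads. The summits were 27, 2 and 9 bp from a *PRKAG1* TSS. In each library this value exceeded that of the *KMT2D* promoter itself, but the peak centres lay 4251 to 4574 bp from the nearest *KMT2D* TSS and did not count for *KMT2D*.

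*EZH2*, the catalytic subunit of Polycomb repressive complex 2 (PRC2) and the writer of H3K27 methylation, lies on the minus strand at chr7:148504349-148581413 (ENSG00000106462). Its promoter passed in OCI-Ly1 rep2, with a -log10 q of 3.44, a fold of 5.33 and 7 reads (2.81 to 14.4). Its summit was 403 bp upstream of the 5′ end of the gene, outside annotated transcripts. The best promoter values were 1.3 in VAL rep1 and 1.71 in VAL rep2, both at other start sites of the gene. With rank 4669 of 5354 passing peaks, the OCI-Ly1 call was close to the threshold, and whether the lines differ at *EZH2* was not tested. The 101 bases centred on this summit, on the plus strand at chr7:148581766-148581866, are shown because they hold 3 copies of GGAA on either strand, in capitals, without either longer motif.
EZH2: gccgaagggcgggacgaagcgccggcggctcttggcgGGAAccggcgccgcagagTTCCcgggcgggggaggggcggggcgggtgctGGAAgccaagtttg

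*SETD2*, the enzyme that trimethylates H3K36 in transcribed genes, lies on the minus strand at chr3:47057918-47205603 (ENSG00000181555). Its promoter peak had a -log10 q of 12.0 in OCI-Ly1 rep2, 1.05 in VAL rep1 and 15.9 in VAL rep2. These rested on 13 (6.92 to 22.2), 10 (4.8 to 18.4) and 15 (8.4 to 24.7) reads over backgrounds of 0.41, 2.16 and 0.359. The site thus passed in OCI-Ly1 rep2 and VAL rep2 and not in VAL rep1, where the background was highest. Summits lay in an intron, 749 to 799 bp downstream of the canonical TSS, and those of the passing libraries were 18 bp apart. The lncRNA *KIF9-AS1* has a TSS within 3 kb of the same peak. In each library CCGGAAG on the minus strand was within 50 bp of the summit, at 15, 35 and 3 bp. The 101 bases at chr3:47204786-47204886 on the plus strand are shown with this motif in capitals, read as its complement.
SETD2: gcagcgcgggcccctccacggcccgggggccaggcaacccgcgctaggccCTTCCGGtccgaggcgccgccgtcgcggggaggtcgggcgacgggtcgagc

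The H3K27 demethylase *KDM6A*, which removes the mark that *EZH2* places, lies on the X chromosome at chrX:44732434-44972024 (ENSG00000147050, plus strand). None of its promoter peaks passed. Its best -log10 q was 0.873 in OCI-Ly1 rep2, 0.382 in VAL rep1 and 1.52 in VAL rep2, on 3 or 4 reads each. The gene is the longest of the 10, at 240 kb, and had 1 passing peak inside, in VAL rep2 with a -log10 q of 3.87 and 6 reads (2.2 to 13.1), in an intron 9827 bp from the nearest TSS. The peaks listed at that place in the other libraries reached 0.344 and 0.41.

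Both acetyltransferase genes, whose products acetylate histones at active enhancers and promoters, differed from each other. *EP300* (ENSG00000100393, plus strand, chr22:41488596-41576081) had the highest promoter value of the 10 genes in OCI-Ly1 rep2 and in VAL rep2. The -log10 q was 17.0 in OCI-Ly1 rep2 and 17.6 in VAL rep2, on 16 (9.15 to 26.0) and 18 (10.7 to 28.4) reads. At the same position VAL rep1 had 0.495, on 9 reads (4.12 to 17.1) over a background of 2.51, against backgrounds of 0.38 and 0.538 in the other libraries. The best *EP300* promoter value of VAL rep1, 1.46, came from an internal start of the gene. Folds were 12.3 and 12.4 in the passing libraries and 2.85 in VAL rep1. The summits lay 852 to 881 bp upstream of the first TSS, outside annotated transcripts, and those of the passing libraries were 29 bp apart. The microRNA gene *MIR1281* has a start within 3 kb of the same peak. CCGGAAA on the minus strand lay 21, 8 and 8 bp from the summits. The 101 bases at chr22:41487665-41487765 on the plus strand, around the VAL rep2 summit, show the motif in capitals as its complement.
EP300: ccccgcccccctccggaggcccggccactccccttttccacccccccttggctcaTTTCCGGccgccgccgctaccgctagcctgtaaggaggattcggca

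*CREBBP*, the paralog of *EP300*, lies on the minus strand at chr16:3775055-3930714 (ENSG00000005339). Its best promoter -log10 q was 1.01 in OCI-Ly1 rep2, 3.0 in VAL rep1 and 2.51 in VAL rep2. The call in VAL rep1 ranked 962 of 973 passing peaks and rested on 8 reads (3.45 to 15.8). It lay in an intron, 948 bp from the start of an internal transcript and 124391 bp downstream of the gene start, and neither other library listed a peak there. The values of the other libraries came from the gene start itself, on 4 and 5 reads. *CREBBP* thus had no position at which more than 1 library passed.

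Of the DNA methylation enzymes, *DNMT1*, which copies methylation to the new strand after replication, lies on the minus strand at chr19:10244018-10341962 (ENSG00000130816). Its promoter peak had a -log10 q of 16.8 in OCI-Ly1 rep2, 0.417 in VAL rep1 and 12.0 in VAL rep2. The reads were 19 (11.4 to 29.7), 9 (4.12 to 17.1) and 12 (6.2 to 21.0), over backgrounds of 0.717, 2.74 and 0.312. Among the 4 genes passing in both lines, *DNMT1* alone had its higher value in OCI-Ly1 rep2. Summits were 303 to 365 bp downstream of the canonical TSS at 10305629, and those of the passing libraries were 62 bp apart. CCGGAAG on the plus strand was 7 bp from the OCI-Ly1 summit and 46 bp from that of VAL rep1, but over 50 bp from that of VAL rep2. The 30 bases holding it lie in an intron at chr19:10305319-10305348, plus strand, with the motif in capitals.
DNMT1: ggcacgcgcgaCCGGAAGtgccaccctgcc

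*DNMT1* carried a pair of further passing sites, each in a single library. A site in the UTR at the 3′ end of the gene, near an internal TSS, reached 4.87 in OCI-Ly1 rep2 on 7 reads and 1.71 in VAL rep2. A site 52 bp upstream of the most distant annotated 5′ end, shared with *S1PR2* (a sphingosine-1-phosphate receptor that restrains germinal center B cell migration) and *MIR4322*, reached 4.22 in VAL rep2 on 7 reads and 1.53 in OCI-Ly1 rep2. That site was 36385 bp upstream of the canonical *DNMT1* TSS. VAL rep1 listed no peak at either.

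*TET2*, which oxidises 5-methylcytosine toward its removal and so acts opposite to *DNMT1*, lies on the plus strand at chr4:106067032-106200973 (ENSG00000168769). Its best promoter -log10 q was 1.22 in OCI-Ly1 rep2 and 0.952 in VAL rep2, on 4 reads each (1.09 to 10.2), and VAL rep1 listed no promoter peak. No peak inside the gene passed in any library, with highest values of 1.22, 0.495 and 0.952. *TET2* was the only 1 of the 10 genes without a passing peak of either kind, although weaker occupancy than these lists could call cannot be seen here. It also had the fewest annotated TSS, 8.

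Both remodeling genes encode core parts of the BAF (SWI/SNF) complex, which moves nucleosomes: *ARID1A* a large DNA-binding subunit and *SMARCA4* its ATPase. The strongest site of the whole set lay inside *ARID1A* (ENSG00000117713, plus strand, chr1:27019727-27108595). Its -log10 q was 30.8 in OCI-Ly1 rep2, 4.88 in VAL rep1 and 30.2 in VAL rep2. The reads were 26 (17.0 to 38.1), 16 (9.15 to 26.0) and 27 (17.8 to 39.3), with folds of 17.9, 5.35 and 17.2. All 3 libraries passed at this position, with summits within 22 bp of each other. Background reads were 0.512, 2.18 and 0.628. The peak ranked 139 of 5354, 477 of 973 and 172 of 6474 passing peaks, and 17, 121 and 28 among passing peaks over 3 kb from every TSS.

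The site is in an intron of *ARID1A*, 48233 to 48255 bp downstream of the canonical TSS, and its peak centres were 8497 to 8694 bp from the nearest annotated start of the gene, so it did not count as a promoter peak. Neither CCGGAAA nor CCGGAAG was within 50 bp of any summit, and 2 or 3 copies of GGAA were. The 101 bases around the VAL rep2 summit, on the plus strand at chr1:27070692-27070792, show these cores in capitals as their complement TTCC.
ARID1A intron: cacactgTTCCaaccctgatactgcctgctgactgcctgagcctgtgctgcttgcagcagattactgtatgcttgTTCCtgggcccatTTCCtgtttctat

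**Figure D2:**
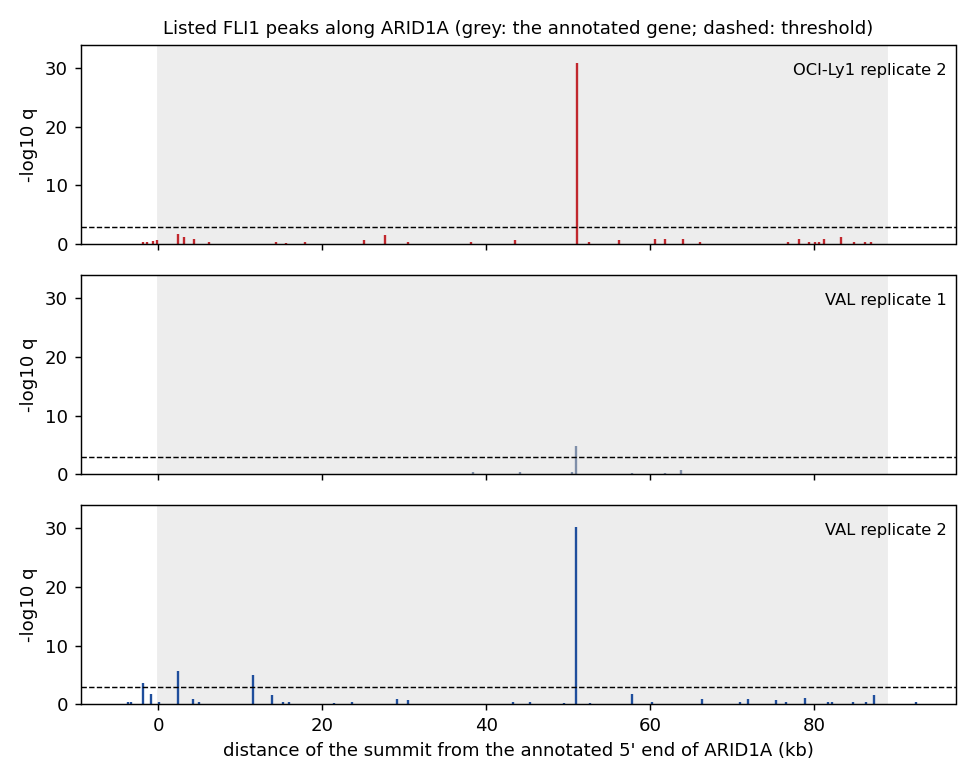
The panels show every listed FLI1 peak along *ARID1A* in OCI-Ly1 rep2, VAL rep1 and VAL rep2, with the distance of the summit from the annotated 5′ end in kb on the horizontal axis, the -log10 q as the height of each line, the gene shaded grey and the threshold of 3 dashed. The intron site stands at 30.8, 4.88 and 30.2 at the same position in all 3, and the promoter and the other intron peak pass in VAL rep2 alone.

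At the *ARID1A* promoter the signal was weaker. The best -log10 q was 1.80 in OCI-Ly1 rep2, 0.45 in VAL rep1 and 5.72 in VAL rep2, on 5 (1.62 to 11.7), 5 (1.62 to 11.7) and 8 (3.45 to 15.8) reads, and the VAL rep1 peak lay elsewhere in the gene. The passing summit was 355 bp upstream of the canonical TSS, inside an intron of a longer transcript. VAL rep2 had a further promoter peak upstream of the 5′ end, at 3.66 on 6 reads, and an intron peak 11550 bp downstream of the 5′ end, at 4.98 on 7 reads. Start sites of unnamed lncRNAs shared the promoter peaks. The 101 bases around the passing promoter summit at chr1:27022101-27022201, plus strand, are shown for contrast with the intron site, with GGAA or its complement in capitals and neither longer motif.
ARID1A promoter: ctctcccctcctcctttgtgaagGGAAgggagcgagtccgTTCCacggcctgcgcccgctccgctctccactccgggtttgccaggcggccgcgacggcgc

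*SMARCA4* (ENSG00000127616, plus strand, chr19:11071608-11190102) had 47 annotated TSS, the most of the 10. Its best promoter -log10 q was 1.61 in OCI-Ly1 rep2, 0.757 in VAL rep1 and 4.34 in VAL rep2, the last on 7 reads (2.81 to 14.4). The passing summit was 31 bp upstream of the gene's 5′ end. At that position OCI-Ly1 rep2 had 1.37 on 5 reads and VAL rep1 had 0.757 on 10 reads over a background of 2.61. An intron site 7825 bp downstream of the 5′ end passed in OCI-Ly1 rep2 at 3.12 on 6 reads and just missed in VAL rep2 at 2.84 on 7 reads. The 30 bases beside the promoter summit, at chr19:11071578-11071607 on the plus strand, hold 1 GGAA, in capitals.
SMARCA4: ccgggcaggcggcGGAAgctggagaggccg

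In VAL rep2, 9 peaks inside the genes passed at a -log10 q of 3 and 18 at 2. Of the sites described here, those just inside the threshold of 3 were *CREBBP* in VAL rep1 (3.0), the *SMARCA4* intron in OCI-Ly1 rep2 (3.12) and *EZH2* in OCI-Ly1 rep2 (3.44). Just outside it lay, among others, the *SMARCA4* intron in VAL rep2 (2.84), the highest peak inside *EP300* in VAL rep2 (2.7) and the *CREBBP* promoter in VAL rep2 (2.51).

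Over all 10 genes the passing peaks fell on 15 distinct sites, 11 of them promoter sites and 4 inside a gene but over 3 kb from its TSS. Passing was limited to 1 library at 10 sites, extended to 2 libraries at 3 sites (*EP300*, *SETD2* and *DNMT1*), and reached all 3 libraries at the *ARID1A* intron and the *KMT2D* promoter. These last 5 sites were those shared by both lines. At them VAL rep1 had the highest background, 2.16 to 3.52 reads, against 0.38 to 1.13 in OCI-Ly1 rep2 and 0.312 to 0.628 in VAL rep2. Its folds there were 2.68 to 5.35, at each site below those of the other libraries. *EP300*, *SETD2* and *DNMT1* entered this set by passing in the other libraries and not in VAL rep1. Their lower VAL rep1 folds are thus not independent of the choice of sites, and how much that choice matters was not tested. The *KMT2D* promoter and the *ARID1A* intron, which passed in VAL rep1, had folds of 4.65 and 5.35 there. Their folds were 5.17 and 17.9 in OCI-Ly1 rep2, and 8.8 and 17.2 in VAL rep2. The part of the background in the calls lost in VAL rep1 was not tested. Without VAL rep1 the same 4 promoters passed in both lines.

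**Figure D3:**
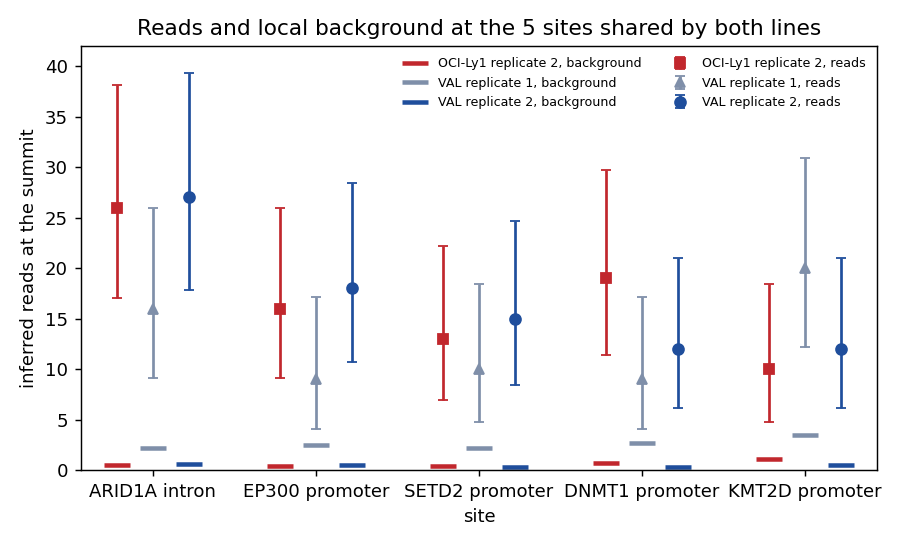
Points give the reads inferred at the summit (vertical axis) of the 5 sites shared by both lines, with exact Poisson 95% intervals that cover counting error only, and short horizontal bars give the inferred local background in the same library. The *ARID1A* intron holds 26, 16 and 27 reads, and the background of VAL rep1 is above that of both other libraries at every one of the 5 sites.

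Passing peaks centred inside the genes numbered 5 in OCI-Ly1 rep2, 2 in VAL rep1 and 9 in VAL rep2. They lay in 4 genes (*ARID1A*, *DNMT1*, *SETD2*, *SMARCA4*), 2 genes (*CREBBP*, *ARID1A*) and 6 genes (*KMT2D*, *ARID1A*, *DNMT1*, *SETD2*, *SMARCA4*, *KDM6A*). Of all protein coding genes, 15.9%, 2.6% and 18.8% held a passing peak in the same libraries. Long genes have more room for a peak, so the density was also taken. Over their 1189 kb the 10 genes held 0.421, 0.168 and 0.757 passing peaks per 100 kb, against 0.263, 0.0392 and 0.324 over all protein coding genes. These counts include promoter peaks centred inside the genes. Only 2, 1 and 3 of the peaks lay over 3 kb from every TSS of their gene. No density away from TSS was taken over all genes. *ARID1A* was the only gene of the 10 with a passing peak inside in every library, and *EZH2*, *EP300* and *TET2* had none inside in any.

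Some but not all of the bound promoters held the preferred FLI1 sequence. CCGGAAA or CCGGAAG lay within 50 bp of the passing best promoter peak at *EP300*, *DNMT1* and *SETD2* in OCI-Ly1 rep2, 3 of 5 genes, and at *EP300* and *SETD2* in VAL rep2, 2 of 6. It lay at 0 of 2 in VAL rep1. Over all passing promoter peaks the share was 44.7%, 53.5% and 37.7% in OCI-Ly1 rep2, VAL rep1 and VAL rep2, against 3.9%, 5.15% and 3.16% in windows of the same length 250 bp away. *EP300*, *DNMT1* and *SETD2* also had the 3 highest promoter values of the 10 in OCI-Ly1 rep2 and VAL rep2. In VAL rep2, though, *DNMT1* had neither motif within 50 bp. Among genes without a passing promoter peak, the best peak had CCGGAAA or CCGGAAG within 50 bp at 1 of 5 in OCI-Ly1 rep2. That gene was *KDM6A*, with the lowest promoter value of the 10 there (0.873). The counts were 2 of 8 in VAL rep1 and 0 of 4 in VAL rep2. GGAA alone, which is contained in both longer motifs, was within 50 bp of 86.4%, 89.0% and 83.6% of all passing promoter peaks. It was not counted in control windows, so how much of this share is the base rate of so short a sequence is not known. A motif match describes the letters and does not show which ETS protein was bound.

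To set the 10 genes among their partners, 66 further genes of the same complexes and enzyme classes were taken in 6 lists by membership. The lists, too, were chosen with earlier results of these data known. A passing promoter peak was found at 26 of the 66 in OCI-Ly1 rep2 (39.4%), 1 in VAL rep1 (1.52%), 30 in VAL rep2 (45.5%) and 22 in both lines (33.3%). Over all protein coding genes the shares were 19.0%, 3.14%, 20.8% and 12.6% in the same order. Among those with at least 8 TSS they were 27.4%, 4.36% and 29.9% in the 3 libraries. The number of TSS per gene was not matched between these lists and the background of all protein coding genes.

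Partners of *ARID1A* and *SMARCA4* in the BAF and PBAF complexes passed at 11 of 19 genes (57.9%) in OCI-Ly1 rep2, 0 in VAL rep1 and 11 in VAL rep2. The shares of all protein coding genes were 19.0%, 3.14% and 20.8%. *BRD7*, a bromodomain subunit of PBAF, had a -log10 q of 18.0, 1.02 and 14.4 in the order OCI-Ly1 rep2, VAL rep1 and VAL rep2. The core subunit *SMARCD2* had 11.4, 2.68 and 22.2. *SS18*, the BAF subunit fused in synovial sarcoma, had 13.4, 0.183 and 7.9. All 3 exceeded the promoter values of *ARID1A* and *SMARCA4* themselves in each library except *SS18* in VAL rep1.

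Partners of *EZH2* in PRC2 passed at 1 of 10 genes in OCI-Ly1 rep2, 0 in VAL rep1 and 4 in VAL rep2. *PHF19*, which recruits PRC2 to chromatin, had 3.38, 0.382 and 4.11, and *PHF1*, of the same family, reached 5.18 in VAL rep2. The histone-binding subunit *RBBP4* had 4.87 there. In the complex of *KMT2D*, 3 of 8 partners passed in OCI-Ly1 rep2, 0 in VAL rep1 and 4 in VAL rep2. Its paralog *KMT2C* had 3.63, 0.183 and 5.19. The subunit *PAXIP1* reached 4.28 in OCI-Ly1 rep2, and the coactivator *NCOA6* reached 3.56 in VAL rep2.

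Genes of acetylation and deacetylation passed at 5, 0 and 6 of 10, against 19.0%, 3.14% and 20.8% of all protein coding genes. The corepressor *NCOR1* had 8.46, 0.495 and 8.38, and the deacetylase *HDAC1* 5.19, 0.183 and 5.19. Among the 7 genes of DNA methylation, 2 passed in OCI-Ly1 rep2, 0 in VAL rep1 and the same 2 in VAL rep2. These were *TET3*, the paralog of *TET2*, with 6.47, 0.183 and 3.17, and *IDH1*, whose product makes the cofactor of the TET enzymes, with 6.47, 1.02 and 5.18. The DNA methylation share was 28.6% in OCI-Ly1 rep2 and VAL rep2. Among protein coding genes with at least 8 TSS it was 27.4% and 29.9% there.

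The other enzymes of H3K4, H3K27 and H3K36 passed at 4, 1 and 3 of 12. The highest of these and of the 10 genes was *KDM5A*, an H3K4 demethylase, with a -log10 q of 80.9, 55.3 and 180.0. Its reads were 51 (38.0 to 67.1), 67 (51.9 to 85.1) and 98 (79.6 to 119.0), and its peak was the first of all passing peaks in VAL rep2. That peak sat on the shared promoter of *KDM5A* and *CCDC77*, with the longer motif within 50 bp of the summit in each library. *KDM6B*, the paralog of *KDM6A*, had 6.84, 2.69 and 3.66, and *KMT2A* had 5.19, 2.02 and 6.15. *KDM5A* was the only partner gene with a passing peak in all 3 libraries.

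**Figure D4:**
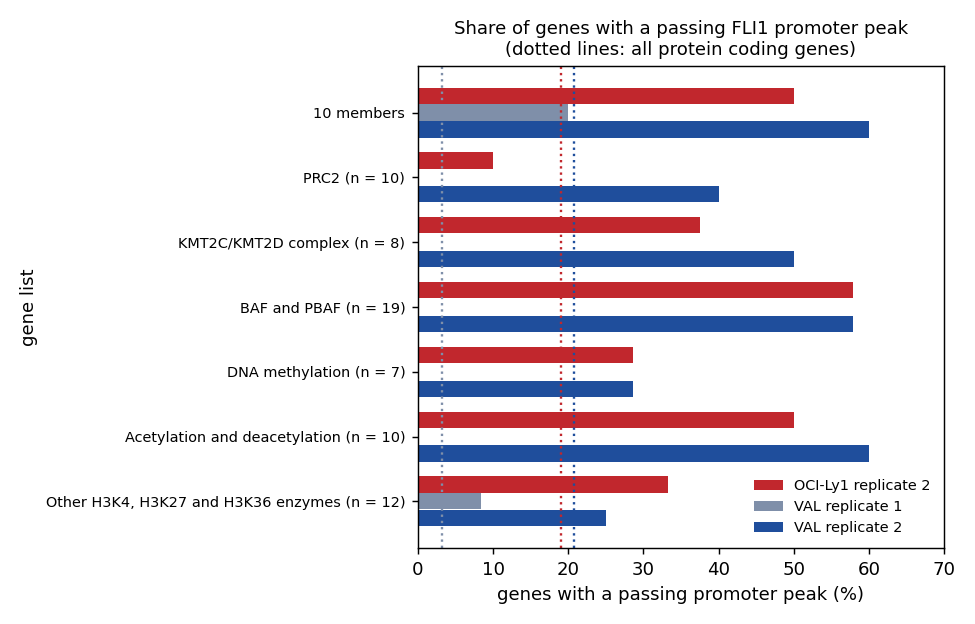
Bars give the percent of genes with a passing FLI1 promoter peak (horizontal axis) for the 10 chromatin regulators and for 6 lists of partner genes (vertical axis) in OCI-Ly1 rep2, VAL rep1 and VAL rep2, and dotted lines give the share of all protein coding genes in each, 19.0%, 3.14% and 20.8%. BAF and PBAF genes stand at 57.9% in OCI-Ly1 rep2 and VAL rep2, above every dotted line.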

How the data were processed

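FLI1 ChIP-Seq peak lists, 1 per library with replicates not pooled, were used as deposited. Per the paper's methods, the authors mapped reads to GRCh37 with bowtie2 and filtered them with SAMtools, while the processing notes of the submitters name BWA, CASAVA 1.4 and hg19. The methods name HOMER, whereas the lists have the layout of MACS2, and their caller, control and settings are not given in the sources used here. The deposited fold enrichment is a ratio of reads over local background at the summit, made by the authors' peak caller. The −log10 p and −log10 q are those the authors' caller gave each summit. The deposited score was not used. Read totals were not used, and input DNA samples were not analysed here. All 24 chromosomes of each list fitted the lengths of the GRCh37 reference.

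Reads and background at a summit were solved from the fold, taken as reads plus 1 over background plus 1, and a Poisson p-value. A solution was found for 99.94%, 99.9% and 99.98% of passing peaks of OCI-Ly1 rep2, VAL rep1 and VAL rep2. Genes and TSS came from GENCODE release 44 on GRCh37, and sequences from the GRCh37 genome. Passing peaks of the libraries that overlapped by at least 1 bp made 1 site. Scripts used scipy 1.17.1, pysam 0.24.0, matplotlib 3.10.9, pandas 2.3.3 and numpy 2.4.6 under python 3.11.15, and were tested on simulated data. No test was run between samples. The threshold, the promoter and gene definitions, the replicates and the motif were varied.

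All 10 genes are named, and of the partner lists the 2 highest passing genes per list and library and any gene passing in all 3 libraries. A gene that this rule names is not reported here. *PRKAG1* was named after its values were seen. The 10 genes and the lists were chosen with earlier results of these data known.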

Additional observations from a re-analysis of the deposited data

How the results depend on the processing

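Of 94 values recomputed under an alternative, 64 moved little and 30 moved by more than 1.5 times. Some of the 64 could not move, so they do not measure stability. Every passing peak of the 10 genes already had a fold of at least 4, and OCI-Ly1 as a line repeated the values of OCI-Ly1 rep2. Raising the threshold to a −log10 q of 5 left 3 promoters in OCI-Ly1 (*EP300*, *DNMT1*, *SETD2*) and 0 in VAL rep1, and 3, 0 and 5 passing peaks inside the genes in OCI-Ly1 rep2, VAL rep1 and VAL rep2. Lowering it to 2 gave 18 peaks inside in VAL rep2. With every listed peak, 10 promoters counted in OCI-Ly1, in VAL rep2 and in both lines and 9 in VAL rep1. Counting only the 5′ end of the gene, or only the canonical TSS (chosen after seeing the data), left 1 promoter in VAL rep1, *KMT2D*, because *CREBBP* passed at an internal start. The 5′ end rule also dropped *DNMT1* in OCI-Ly1 rep2, leaving 4 promoters there and 3 in both lines (*KMT2D*, *EP300*, *SETD2*). In VAL rep2 *DNMT1* then counted through the site shared with *S1PR2*. Requiring both VAL replicates left 1 promoter in VAL and 1 in both lines, again *KMT2D*. Leaving out 1 replicate at a time gave 0 to 5 promoters in OCI-Ly1, 2 to 6 in VAL and 0 to 4 in both lines. The low ends came from omitting OCI-Ly1 rep2 (0 in OCI-Ly1 and in both lines) or VAL rep2 (2 in VAL and 1 in both lines). Any overlap with the gene gave 4 peaks in VAL rep1, and leaving out those within 3 kb of a TSS gave 2, 1 and 3 peaks. GGAA in place of the longer motif was found at 5 of 5, 2 of 2 and 6 of 6 passing promoters, with no control windows counted for GGAA. The motif followed by T, ending in AAGT, was found at 1 in OCI-Ly1 rep2 and 0 in VAL rep2. Control windows held the longer motif at 1 promoter of OCI-Ly1 rep2, and 0 when placed 1000 bp away.

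No paired analysis was possible because no result came from a test between groups. No peak with fewer than 6 reads, or 8 in VAL rep1, passed, and library totals were unknown, so reads were not compared between libraries as amounts.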

Other observations

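The *ARID1A* intron window held 2 copies of CAGGAA on either strand, a form of the ETS core that differs from the longer motif searched, in each of the 3 libraries. The nearest copy was 9 bp from the summit in OCI-Ly1 rep2, 31 bp in VAL rep1 and 28 bp in VAL rep2. CAGGAA was chosen after this sequence was seen. Of passing peaks over 3 kb from every TSS, 16.2%, 17.6% and 20.0% held at least 1 copy within 50 bp of the summit in the same order, against 7.55%, 7.67% and 10.4% of windows 250 bp away. At least 2 copies were present in 2.52%, 3.12% and 2.89% of these peaks.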
